A study of Mus musculus with 6 samples.

Results

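Splicing factors and heterogeneous nuclear ribonucleoproteins (hnRNPs) were examined in myeloid cells of the mouse bone marrow. The members were the genes whose array probe sets carried 1 gene symbol beginning with Srsf and a digit, Snrp, Sf3a or Sf3b and a digit, or Hnrnp, which gave 47 of the 18193 single-symbol genes on the array. They were 10 SR proteins (Srsf), 9 proteins of small nuclear ribonucleoproteins (Snrp, the snRNP proteins), 9 subunits of splicing factor 3 (Sf3) and 19 hnRNPs. Another 16 probe sets carried such a symbol together with a second gene's and were not members. The brightest probe set of each gene by the mean of the 6 arrays stood for the gene. The 6 samples were total RNA from female HdcGFP mice of a C57BL/6 background, in which a fluorescent protein reports Hdc, the histamine-making enzyme histidine decarboxylase. Marrow of femur and tibia was sorted in all samples for cells with the surface proteins CD11b and Gr1, and these either with a positive or high reporter signal (GFP_plus, 3 samples) or with a negative or low one (GFP_min, 3 samples). All 6 carry the reporter, so there is no group of mice without it, and the labels give no age. The description of GFP_min replicate b reads Gr1-negative, against its own sorted-cell label, and counts are also given without it. Separate mice are not stated for the replicates, so the p-values reflect the spread between samples that may be technical.

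Splicing removes introns from messenger RNA precursors. The spliceosome is built from snRNPs, each a small RNA held in a ring of Sm or LSm proteins, and the U2 snRNP carries the SF3A and SF3B complexes that grip the branch point. SR proteins, named for their arginine and serine repeats, mostly favour the use of nearby exons, while hnRNPs coat the transcript and often oppose it, and together they set which exons a cell joins.

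Most snRNP protein genes were lower in GFP_plus than in GFP_min on the deposited scale, and 13 of the 19 hnRNP genes had no called change. Changes were called by limma at a Benjamini-Hochberg adjusted p under 0.05, taken over the 22956 tested probe sets, and 17 of the 45 tested members were lower, 5 were higher and 23 were not called. Over all 10807 genes tested, 48.7% were called, with 21.0% higher and 27.6% lower. The share of members called in either direction (48.9%) lay at this background, while 37.8% were lower and 11.1% higher. Without GFP_min replicate b, 17 were lower and 3 higher, and the count of higher members was also 3 without GFP_plus replicate b and 2 without GFP_plus replicate a. Of all 10807 genes, 2738 were lower and 2083 higher without GFP_min replicate b, beside 2986 and 2274 on all 6 arrays. Without GFP_plus replicates b and a in turn, 2044 and 1746 of all genes were higher. The median difference over the 45 members was −0.17 on the log2 scale, against 0.0024 over all genes. All 3 arrays of one group lay beyond all 3 of the other for 25 members (55.6%), against 59.3% of all genes. All 45 tested members exceeded the array median on all 6 arrays. The other 2, Snrpn and Srsf12, exceeded it on 0 arrays, with highest values of 2.42 and 2.29, and were not tested.

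These directions depend on how the arrays are scaled. Of the 45 tested members 5 were higher and 17 lower on the deposited scale. The counts, not always of the same genes, were again 5 and 17 after quantile normalization. They were 16 and 9 with arrays centred on the median of the tested probe sets. With centring on 42 ribosomal protein genes they were 34 and 4, and with centring on the spiked-in bacterial poly-A RNAs 0 and 39. Of all 10807 genes, 2705 were higher and 2682 lower after quantile normalization. The 3 centrings gave, in the same order, 4471 and 2089, 7379 and 1216, and 420 and 6026 of all genes. These 3 centrings add 0.20, 0.53 and −0.41 to every difference, and so leave the distance of a family from the median of all genes as it was. That distance was −0.59 for the snRNP genes, −0.26 for SF3, −0.22 for SR and 0.017 for the hnRNPs. After quantile normalization it was −0.66, −0.34, −0.29 and −0.054.

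**Figure D1:**
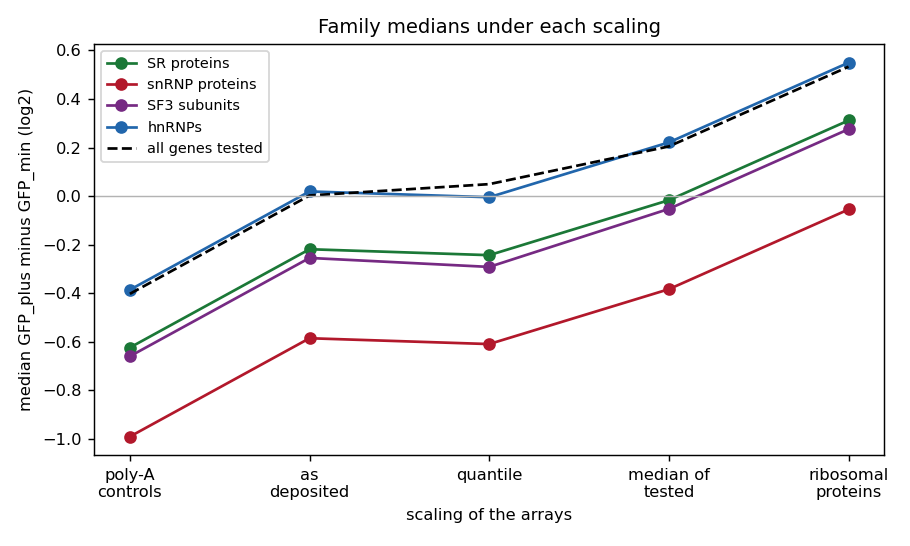
Median difference between GFP_plus and GFP_min (log2) of the tested genes of each family and of all genes tested (dashed line), under 5 scalings of the arrays. The snRNP median is the lowest under each of the 5 (−0.59 as deposited, −0.055 with ribosomal centring), while the SR and SF3 medians turn positive with ribosomal centring and the hnRNP median turns negative with quantile normalization and poly-A centring.

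Promoter windows came from RefSeq (mouse, GRCm38.p6), where 42 of the 47 members had at least 1 window and 58 windows in all. Shown here are the last 200 bases before the annotated start of the 3 snRNP genes with the largest falls, of Sf3a1, the SF3 gene with the largest fall, and of Hnrnpul1 and Hnrnpk, 2 hnRNP genes that were higher. They were chosen after their values were seen. Capitals mark matches, on either strand, to CCGGAAG, the ETS-type letters, to the CCAAT letters, to GCATGCGC, the NRF1-type letters, to GGGCGG, the Sp1-type letters, to CACGTG, an E-box, or to TATAAA, the TATA box.
Snrpf, chr10:93589659-93589858, minus strand: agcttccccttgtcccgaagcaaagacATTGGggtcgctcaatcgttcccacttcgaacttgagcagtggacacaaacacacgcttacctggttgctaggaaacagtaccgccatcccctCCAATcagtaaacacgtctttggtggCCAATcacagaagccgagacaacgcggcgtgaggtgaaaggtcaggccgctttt
Snrpb2, chr2:143062869-143063068, plus strand: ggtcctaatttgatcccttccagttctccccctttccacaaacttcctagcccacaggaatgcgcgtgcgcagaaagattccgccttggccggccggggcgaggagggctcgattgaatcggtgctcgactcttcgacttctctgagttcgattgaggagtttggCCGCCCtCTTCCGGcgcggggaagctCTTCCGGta
Snrpg, chr6:86371340-86371539, plus strand: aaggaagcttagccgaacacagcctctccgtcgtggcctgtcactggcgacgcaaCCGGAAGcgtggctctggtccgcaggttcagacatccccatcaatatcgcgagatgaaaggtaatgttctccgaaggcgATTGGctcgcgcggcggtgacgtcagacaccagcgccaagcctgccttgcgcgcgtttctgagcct
Sf3a1, chr11:4160154-4160353, plus strand: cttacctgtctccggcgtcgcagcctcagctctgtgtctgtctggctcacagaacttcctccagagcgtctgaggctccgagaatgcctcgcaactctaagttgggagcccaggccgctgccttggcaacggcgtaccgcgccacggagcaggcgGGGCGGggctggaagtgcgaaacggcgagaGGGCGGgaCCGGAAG
Hnrnpul1, chr7:25754760-25754959, minus strand: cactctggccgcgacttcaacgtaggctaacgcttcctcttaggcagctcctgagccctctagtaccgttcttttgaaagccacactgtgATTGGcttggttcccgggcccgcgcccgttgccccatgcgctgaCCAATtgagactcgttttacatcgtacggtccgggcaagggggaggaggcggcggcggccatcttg
Hnrnpk, chr13:58402118-58402317, minus strand: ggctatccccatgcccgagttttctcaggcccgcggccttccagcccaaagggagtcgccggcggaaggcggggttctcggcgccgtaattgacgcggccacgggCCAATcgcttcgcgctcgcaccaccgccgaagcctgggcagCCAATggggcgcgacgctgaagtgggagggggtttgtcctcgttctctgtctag
In the 250 bases before the start, the ETS-type letters were present in 7 of 8 windows of SF3 genes (6 genes: Sf3a1, Sf3a2, Sf3a3, Sf3b2, Sf3b3 and Sf3b6), in 5 of 13 SR, 3 of 11 snRNP and 3 of 26 hnRNP windows. The share was 6.91% of all 32851 windows and 8.98% of the 21263 windows of protein-coding genes. The CCAAT letters were present in 16 of 26 hnRNP, 4 of 11 snRNP, 3 of 8 SF3 and 3 of 13 SR windows, against 33.8% of all and 35.4% of protein-coding windows. The Sp1-type letters were present in 12 of 13 SR, 19 of 26 hnRNP, 4 of 8 SF3 and 3 of 11 snRNP windows, against 32.7% and 42.6%. The NRF1-type, E-box and TATA letters were in 2, 2 and 5 of the 58 member windows, against 2.26%, 6.02% and 12.4% of all windows. Windows of 1 gene can overlap, so they are not independent. A match describes these letters and is not a measured binding site.

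Of the 8 tested snRNP genes 6 were lower and 0 higher by limma, beside 27.6% and 21.0% of all 10807 genes. The snRNP median was −0.59, and by limma at an unadjusted p under 0.05 the snRNP counts were also 6 and 0. The other 2, Snrpa1 and Snrpc, had negative differences that were not called. The count of lower genes was 6 without GFP_min replicate b and without each of the other 5 samples. Of all 10807 genes, 2674 to 2770 were then lower. All 5 Sm ring genes tested (Snrpf, Snrpg, Snrpb, Snrpd3 and Snrpe) were lower on the deposited scale, but with ribosomal centring Snrpe turned to 0.19 (adjusted p = 0.0363) and Snrpd3 to 0.010 (0.919). With that centring 3 snRNP genes were lower and 3 higher, beside 1216 and 7379 of all 10807 genes.

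Snrpf, an Sm ring protein, read 8.85, 8.77 and 8.74 on GFP_min arrays a, b and c and 7.66, 7.72 and 7.59 on GFP_plus arrays a, b and c (deposited log2 values, as are all levels below). Every GFP_plus array lay far below every GFP_min array, with little spread within either group. The difference was −1.13 (SE 0.091, limma adjusted p = 7.62e-06), a 2.18-fold lower signal in GFP_plus.

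Snrpb2, the U2 snRNP protein that binds a stem-loop of the U2 RNA, read 10.76, 10.88 and 10.82 in GFP_min and 9.82, 9.78 and 9.75 in GFP_plus. The arrays of each group lay close together and the groups far apart. The difference was −1.04 (SE 0.064, limma adjusted p = 1.16e-06), or 2.05-fold lower, and its other tested probe set differed by −0.76.

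Snrpg, a further Sm ring protein, read 11.77, 11.55 and 11.68 in GFP_min and 10.94, 10.82 and 10.99 in GFP_plus, without overlap. It was 1.68-fold lower (−0.75, SE 0.071, limma adjusted p = 2.38e-05), and its second probe set differed by −1.18. Snrpb, which encodes the ring's SmB protein, read 11.52, 11.55 and 11.40 against 10.79, 10.92 and 10.80, again without overlap. It was 1.57-fold lower (−0.65, SE 0.063, limma adjusted p = 2.77e-05) and its second probe set differed by −0.77. The call of Snrpb was lost with ribosomal centring (−0.12, adjusted p = 0.13).

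Snrpd3, which encodes SmD3, read 10.02, 10.10 and 9.996 in GFP_min and 9.63, 9.34 and 9.58 in GFP_plus, a difference of −0.52 (SE 0.088, limma adjusted p = 0.000959). Snrpe, which encodes SmE, read 11.67, 11.60 and 11.85 against 11.42, 11.39 and 11.27, a difference of −0.34 (SE 0.073, limma adjusted p = 0.00356), which lost its call with centring on the tested probe sets (−0.14, adjusted p = 0.131). In both genes the groups did not overlap. Snrpa1, the U2 partner of Snrpb2, differed by −0.21 (95% interval −0.50 to 0.073), although 1 of its 3 tested probe sets was called lower (−0.65). Snrpc, the U1 protein that helps recognise the 5′ splice site, differed by −0.17 (−0.42 to 0.087). Over all 13 tested probe sets of the snRNP genes, 10 were called lower (76.9%) and all 13 differences were negative on the deposited scale. Of all 22956 tested probe sets 22.9% were called lower, and 46.0% had a negative difference. The representative probe sets of Snrpg, Snrpb and Snrpe have the suffix _s_at, which marks probes that may match several transcripts.

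**Figure D2:**
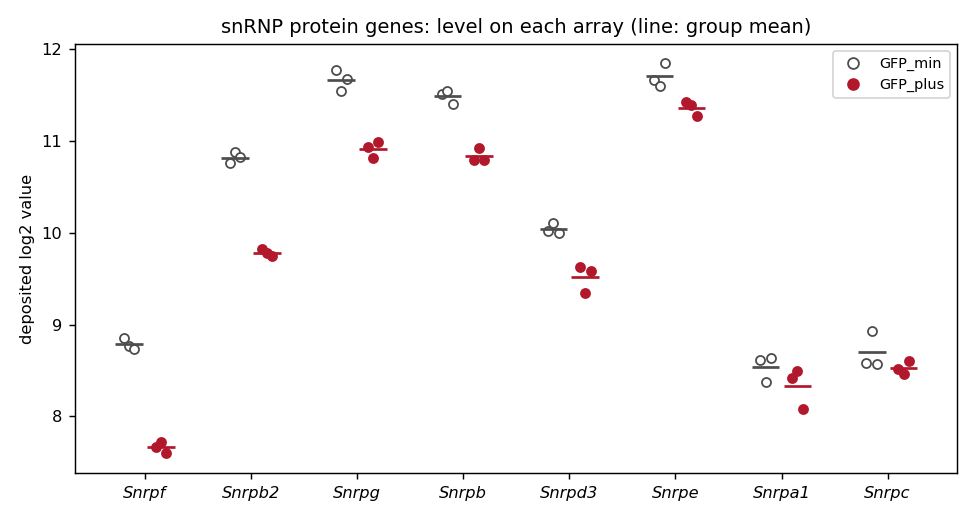
Deposited log2 value of the 8 tested snRNP genes on each array, open circles for GFP_min and filled circles for GFP_plus, with a line at each group's mean of 3. In Snrpf, Snrpb2, Snrpg, Snrpb, Snrpd3 and Snrpe every GFP_plus array lies below every GFP_min array on the deposited scale (Snrpe and Snrpd3 turn to 0.19 and 0.010 with ribosomal centring), and in Snrpa1 and Snrpc the groups overlap.

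Of the 9 SF3 subunit genes, 5 were lower, 1 was higher and 3 were not called, and their median of −0.25 became 0.28 with ribosomal centring. The share called was 66.7%, beside 48.7% of all genes. The count of lower genes was 3 without GFP_min replicate b, GFP_plus replicate a or GFP_plus replicate b, and the count of higher genes was then 0. Of all 10807 genes, in the same order, 2738, 2674 and 2770 were lower and 2083, 1746 and 2044 higher. The SF3 counts were 2 lower and 0 higher without the intensity trend of the fit, 1 and 2 with centring on tested probe sets, and 0 and 6 with ribosomal centring. For all 10807 genes they were 2878 lower and 2065 higher, 2089 and 4471, and 1216 and 7379. Sf3a1, the SF3A subunit that touches both U1 and U2, read 5.93, 6.33 and 6.01 in GFP_min and 5.57, 5.66 and 5.33 in GFP_plus. The groups did not overlap and the difference was −0.57 (SE 0.16, limma adjusted p = 0.0144). The call was lost with quantile normalization (−0.36, adjusted p = 0.0722) and with centring on tested probe sets (−0.37) or ribosomal genes (−0.041). Sf3b3, a scaffold subunit of SF3B, read 7.88, 8.23 and 7.81 against 7.59, 7.40 and 7.31, again without overlap. It differed by −0.54 (SE 0.14, limma adjusted p = 0.00903) and had no call with ribosomal centring (−0.011).

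Sf3a3, another SF3A subunit, read 7.33, 8.09 and 7.66 in GFP_min and 7.25, 7.15 and 7.15 in GFP_plus. GFP_min replicate b stood highest, and it was the highest of the GFP_min arrays in 8 of the 9 SF3 genes, Sf3b2 being the exception. The difference of Sf3a3 was −0.51 (SE 0.17, limma adjusted p = 0.034). It lost its call without GFP_min replicate b (−0.32), GFP_min replicate c (−0.53) or GFP_plus replicate a, b or c (−0.55, −0.50 and −0.50), with quantile normalization (−0.40) and with centring on tested probe sets (−0.31), and turned to 0.016 with ribosomal centring. Its second probe set was also called, at −0.96.

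Sf3b5, a small SF3B subunit, read 11.22, 11.26 and 11.09 in GFP_min and 10.86, 10.72 and 11.06 in GFP_plus, a difference of −0.31 (SE 0.087, limma adjusted p = 0.0161). Sf3b6, a subunit found at the branch point adenosine, read 11.21, 11.41 and 11.21 against 11.05, 10.92 and 11.10, a difference of −0.25 (SE 0.075, limma adjusted p = 0.0193). In neither did the groups overlap, but both differences turned positive with ribosomal centring (0.22 and 0.28) and both calls were lost with centring on tested probe sets (−0.10 and −0.053). Sf3b5 lost its call without GFP_min replicate a (−0.29) or GFP_plus replicate a (−0.30), and Sf3b6 without GFP_min replicate b (−0.19) or GFP_plus replicate b (−0.20).

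Sf3b2, which contacts the transcript beside the branch point, was the 1 SF3 gene called higher, with 11.52, 11.19 and 11.57 in GFP_min and 11.76, 11.95 and 11.62 in GFP_plus. The lowest GFP_plus array lay just above the highest GFP_min array. Its difference of 0.35 (SE 0.11, limma adjusted p = 0.0224) turned to −0.054 with poly-A centring and lost its call without GFP_min replicate b (0.23), GFP_plus replicate a (0.36) or GFP_plus replicate b (0.27). A second of its 6 tested probe sets was called higher (0.38). Sf3b1, the subunit that closes around the branch point helix, read 12.29, 12.32 and 12.26 against 12.34, 12.36 and 12.35, a difference of 0.058 (95% interval −0.033 to 0.15) that was not called. Sf3b4 and Sf3a2 differed by −0.17 (−0.41 to 0.073) and −0.087 (−0.33 to 0.16).

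Of the 9 tested SR protein genes 4 were lower, 0 higher and 5 not called by limma (6 and 0 at an unadjusted p under 0.05), and their median of −0.22 became 0.31 with ribosomal centring. The share called was 44.4%, beside 48.7% of all genes. The counts were 2 lower and 0 higher without the intensity trend of the fit, 2 and 3 with centring on tested probe sets, and 0 and 7 with ribosomal centring. For all 10807 genes they were 2878 lower and 2065 higher, 2089 and 4471, and 1216 and 7379. Srsf9, a short SR protein, read 10.77, 11.01 and 10.89 in GFP_min and 10.34, 10.21 and 10.20 in GFP_plus. The groups were well apart, with a difference of −0.64 (SE 0.077, limma adjusted p = 0.000107), or 1.56-fold, which was −0.11 and not called with ribosomal centring. Srsf6, an SR protein with a pair of RNA-binding domains, read 10.33, 10.47 and 10.39 against 9.97, 9.85 and 9.92. It differed by −0.48 (SE 0.069, limma adjusted p = 0.000337) and all 4 of its probe sets were called lower, though with ribosomal centring its difference turned to 0.049 with no call.

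Srsf2, which binds exonic enhancers and is mutated in some human myeloid diseases, read 11.07, 11.05 and 11.02 in GFP_min and 10.83, 10.81 and 10.84 in GFP_plus. Its arrays were tightly grouped, and a difference of −0.22 (SE 0.053, limma adjusted p = 0.00714) was called. It was −0.017 and not called with centring on tested probe sets, and turned to 0.31 with ribosomal centring, where it was called. The call was also lost without the intensity trend (limma adjusted p = 0.0513) and with the replicate letter as a block (0.0549). Of the 4 tested Srsf2 probe sets 2 were called lower. The representative one, like those of Srsf6, Sf3b5 and Sf3a2, has the suffix _s_at. Srsf11 read 10.71, 10.55 and 10.65 against 10.42, 10.46 and 10.45, a difference of −0.19 (SE 0.064, limma adjusted p = 0.0309). That call was lost without GFP_min replicate a (−0.16), GFP_min replicate c (−0.19), GFP_plus replicate a (−0.18) or GFP_plus replicate c (−0.20), and the difference turned to 0.0073 with centring on tested probe sets and 0.34 with ribosomal centring. Of 4 tested Srsf11 probe sets 1 was called, and the others differed by −0.17, 0.33 and 0.33.

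Srsf5 and Srsf3 differed by −0.25 and −0.24 without being called (limma adjusted p = 0.0597 and 0.0779). In Srsf5 the GFP_plus arrays (10.97, 10.85 and 10.93) lay below all GFP_min arrays, of which replicate b stood apart (11.04, 11.42 and 11.05). Srsf3, the smallest SR protein, read 11.68, 11.47 and 11.70 in GFP_min and 11.37, 11.59 and 11.18 in GFP_plus, with overlap. Srsf5 was called without GFP_min replicate a (−0.32) or c (−0.31), and Srsf3 without GFP_min replicate b (−0.32) or GFP_plus replicate b (−0.35). Srsf1, the founding SR protein, differed by 0.018 (95% interval −0.16 to 0.20), with 1 of its 6 tested probe sets called higher (0.51). Srsf4 and Srsf10 differed by 0.040 (−0.13 to 0.21) and 0.13 (−0.12 to 0.37).

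Of the 19 hnRNP genes 4 were higher, 2 lower and 13 not called, and their median of 0.019 became 0.55 with ribosomal centring and −0.39 with poly-A centring. The counts were 11 higher and 1 lower with centring on tested probe sets, 18 and 1 with ribosomal centring, 0 and 15 with poly-A centring, and 2 and 2 without the intensity trend of the fit. Of all 10807 genes, the counts in the same order were 4471 and 2089, 7379 and 1216, 420 and 6026, and 2065 and 2878. The share called was 31.6%, beside 48.7% of all genes. Hnrnpa1, which represses exons and shuttles between nucleus and cytoplasm, read 10.02, 10.06 and 10.34 in GFP_min and 9.41, 9.43 and 9.30 in GFP_plus. The groups did not overlap. It was 1.69-fold lower (−0.76, SE 0.10, limma adjusted p = 0.000149), and 2 of its 3 tested probe sets were called lower. Its representative probe set, like those of Hnrnpf, Sf3b2 and Srsf1, has the suffix _x_at, which marks probes that may match other transcripts. Hnrnpa0, which binds AU-rich messages, read 10.48, 10.54 and 10.49 against 10.26, 10.15 and 10.20, a difference of −0.30 (SE 0.062, limma adjusted p = 0.00289) that was not called with centring on tested probe sets (−0.10) and turned to 0.23 with ribosomal centring.

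Hnrnpul1, a relative of hnRNP U also linked to DNA repair, read 10.52, 10.22 and 10.38 in GFP_min and 10.83, 10.999 and 11.003 in GFP_plus. It was 1.48-fold higher without overlap (0.57, SE 0.086, limma adjusted p = 0.000495), and 0.16 with no call after poly-A centring. Hnrnph2, which binds runs of guanine, read 9.85, 9.45 and 10.04 against 10.23, 10.57 and 10.08, where the lowest GFP_plus array lay barely above the highest GFP_min array. Its difference of 0.51 (SE 0.16, limma adjusted p = 0.0243) lost its call without GFP_min replicate b (0.35), GFP_plus replicate a (0.54) or GFP_plus replicate b (0.37), and with poly-A centring (0.11).

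Hnrnpk, a protein that binds stretches of cytosine, read 12.14, 11.97 and 12.24 in GFP_min and 12.44, 12.61 and 12.34 in GFP_plus. Its groups did not overlap and it differed by 0.34 (SE 0.082, limma adjusted p = 0.00685), turning to −0.061 with poly-A centring, and 1 of its 3 tested probe sets was called. Hnrnpl, which binds CA repeats, read 10.40, 10.10 and 10.25 against 10.57, 10.52 and 10.51. Its difference of 0.28 (SE 0.081, limma adjusted p = 0.0176) turned to −0.12 with poly-A centring and lost its call without GFP_plus replicate a (0.26).

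The 13 hnRNP genes without a call had differences between −0.20 (Hnrnpr) and 0.14 (Hnrnpf). The others were Hnrnpa2b1 (−0.17), Hnrnpdl (−0.12), Hnrnpab (−0.12), Hnrnph3 (−0.089), Hnrnpu (−0.051), Hnrnph1 (−0.045), Hnrnpm (0.019), Hnrnpc (0.035), Hnrnpd (0.060), Hnrnpul2 (0.11) and Hnrnpll (0.12). Hnrnpll controls the exons of the CD45 gene in lymphocytes, and Hnrnpd, also called AUF1, marks messages for decay. For Hnrnpu, Hnrnpd and Hnrnpm the 95% intervals ran from −0.15 to 0.046, −0.049 to 0.17 and −0.12 to 0.16. Without single samples, calls appeared in Hnrnpa2b1 (−0.24 without GFP_min replicate b and −0.24 without GFP_plus replicate b), Hnrnpdl (−0.18 without GFP_plus replicate a), Hnrnpr (−0.29 without GFP_plus replicate b) and Hnrnpf (0.19 without GFP_min replicate a). These values are of the representative probe sets. In the fit to all 6 arrays the other tested probe sets of Hnrnpa2b1 had positive differences (0.57, 0.11 and 0.19, none called). In those at 0.11 and 0.19 the groups overlapped. Hnrnpdl and Hnrnpr also had tested probe sets of both signs, none called. The count of lower hnRNP genes was 4 without GFP_plus replicate b, and that of higher ones was 2 without GFP_plus replicate a. Of all 10807 genes, 2770 were lower in the first case and 1746 higher in the second.

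**Figure D3:**
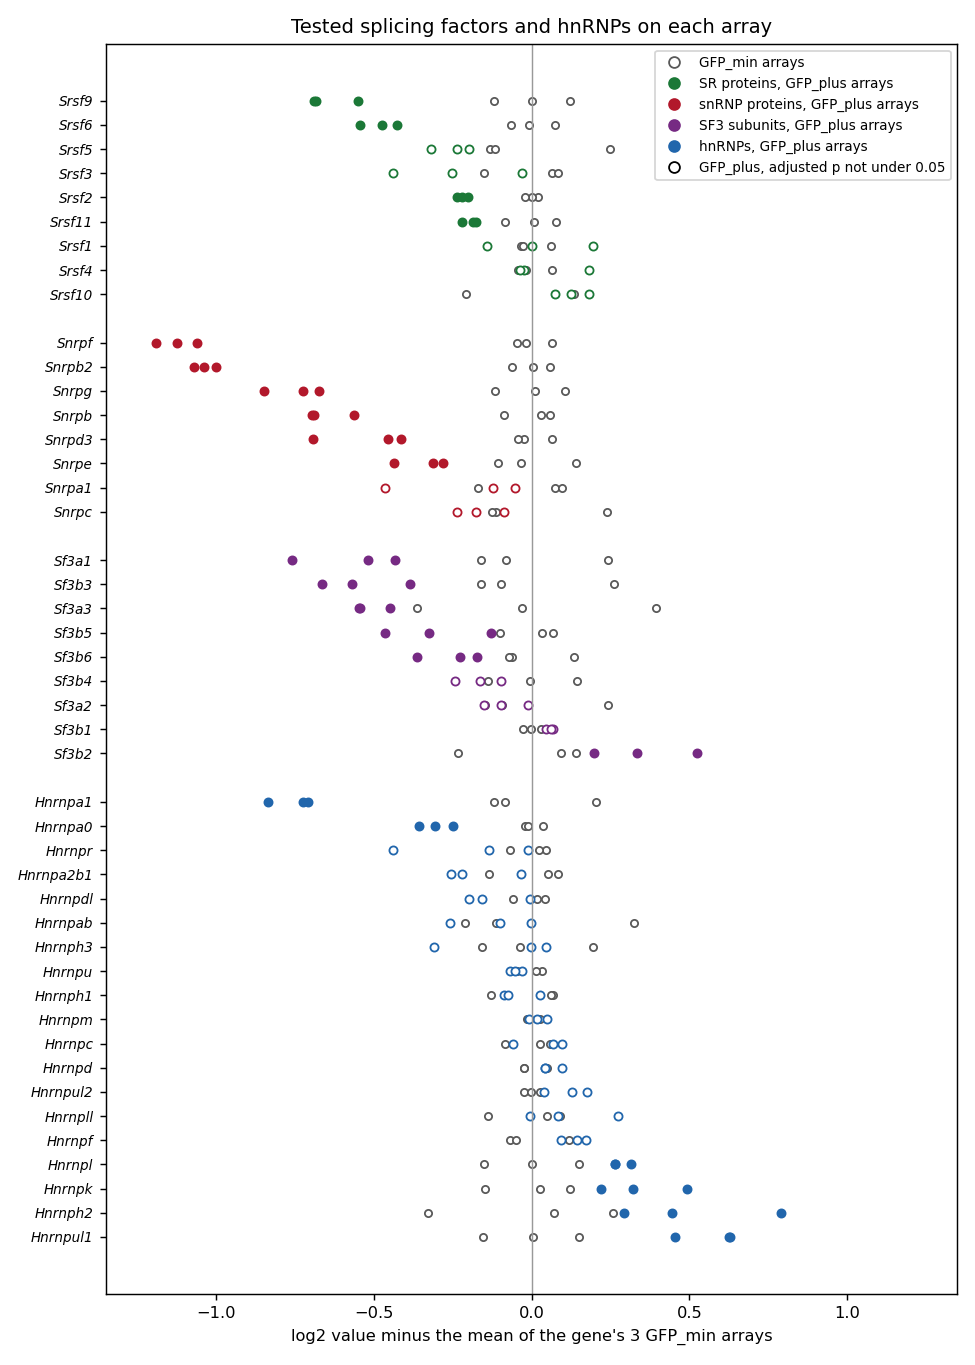
The 45 tested members on each array, as the log2 value minus the mean of the gene's 3 GFP_min arrays, with GFP_min arrays as grey open circles and GFP_plus arrays in the colour of the family, filled where the limma adjusted p was under 0.05. On the deposited scale the filled snRNP points lie left of the GFP_min arrays, while filled hnRNP points lie on both sides, and ribosomal centring would shift all GFP_plus points right by 0.53 on average and poly-A centring by −0.41.

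Different probe sets of a gene can lie at different places in its transcripts, and splicing factor genes make several transcript forms. Of 31 members with more than 1 tested probe set, 14 were called by the representative one, and in 6 of these 14 all tested probe sets shared the call. Probe sets of 1 gene were called in opposite directions in 0 of the 31, and 5 members were called by other probe sets alone. These 5 were Srsf1 (1 of 6 higher), Snrpa1 (1 of 3 lower), Hnrnpab (1 of 7 lower), Hnrnpu (1 of 5 higher) and Hnrnpf (2 of 4 lower). In Hnrnpf, which like Hnrnph2 binds runs of guanine, the representative probe set differed by 0.14 (limma adjusted p = 0.0764), while the 2 called ones differed by −0.33 and −0.48 (limma adjusted p = 0.00117 and 0.000556). The representative one and the other uncalled one (0.16) have the suffix _x_at, and the called ones do not. Without _x_at and _s_at probe sets Hnrnpf turned to −0.33 and was called lower. Over the 123 tested probe sets of members, 34 were called lower (27.6%) and 8 higher (6.50%), beside 22.9% and 21.7% of all tested probe sets. Which transcript forms these probe sets detect was not tested.

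**Figure D4:**
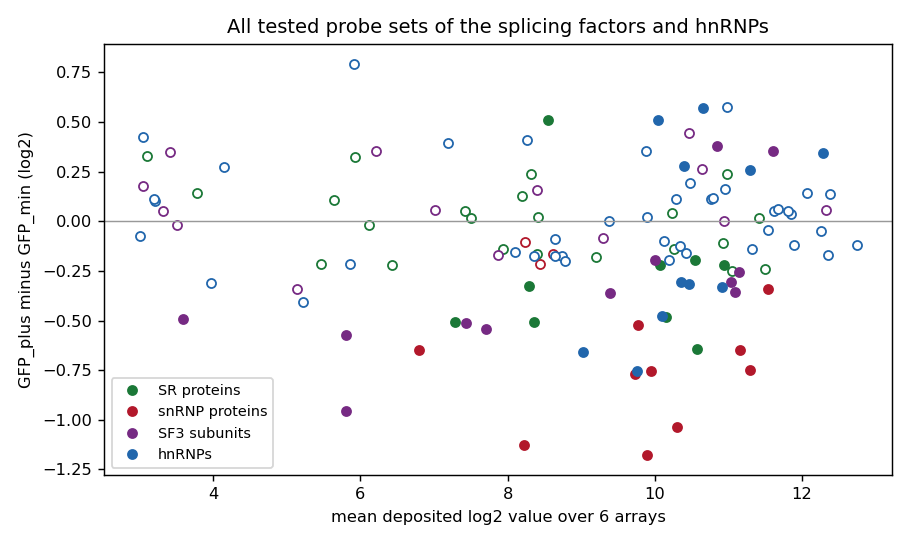
Difference between GFP_plus and GFP_min (log2) of the 123 tested probe sets of the members against their mean deposited log2 value, filled where called by limma and coloured by family. All 13 snRNP points lie below 0 on the deposited scale (with ribosomal centring each moves up by 0.53), and called points are found at low and high levels.

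The other genes of the pathway were taken from 8 lists. Of 135 tested genes in all, 42 were lower (31.1%) and 16 higher (11.9%), with a median of −0.14, beside 27.6% and 21.0% of all genes. The SMN complex and snRNP assembly factors, which load Sm rings onto the small nuclear RNAs, were lower for 6 of 14 and higher for 1, with a median of −0.28. Coil, the scaffold of Cajal bodies where snRNPs mature, differed by −1.08 (limma adjusted p = 0.000242) and Phax, which exports the small nuclear RNAs, by −1.05 (adjusted p = 0.000217). Wdr77, a partner of the methyltransferase that modifies Sm proteins, differed by 0.47 (adjusted p = 0.00535). LSm ring genes, which build the ring of the U6 snRNP and of decay complexes, were lower for 3 of 9 and higher for 0 (median −0.18, and also 3 and 0 at an unadjusted p under 0.05), with Lsm7 at −0.61 and Lsm4 at −0.57.

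Genes of the Prp19 complex and of the catalytic steps were lower for 9 of 21 and higher for 2 (median −0.17), with Ctnnbl1 (−0.80) and Cwc15 (−0.71) the largest falls and Slu7 (0.43) and Xab2 (0.38) the rises. The U5 and tri-snRNP proteins were lower for 5 of 15 and higher for 1 (median −0.13), among them the helicase gene Ddx23 (−0.60), Prpf31 (−0.58) and, upward, Prpf6 (0.66). Factors that assist U1 and U2 were lower for 4 of 14 and higher for 1 (median −0.11), with Tial1 (−0.48) and Tia1 (−0.42), which bind uridine-rich introns, and Luc7l2 (0.38). Exon junction and export genes were lower for 7 of 16 and higher for 2 (median −0.21), with Thoc1 (−1.02) and the cap-binding gene Ncbp2 (−1.01) lower and Casc3 (0.43) and Upf2 (0.35) higher.

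SR-related proteins and SR protein kinases were lower for 2 of 17 and higher for 4 (median 0.050). Tra2a, an exon activator, differed by 0.60 and the kinase gene Srpk2 by 0.38, while Srek1 (−0.61) and Pnn (−0.34) were lower. The hnRNP-like RNA-binding proteins were lower for 6 of 29 and higher for 5 (median 0.062). The cold-induced gene Cirbp (0.77) and Rbm25 (0.64) had the largest rises of that list, and Fubp3 (−1.69) and Mbnl1 (−0.80), a muscleblind splicing regulator, the largest falls. Of the genes named from the 8 lists, the falls of Tial1, Tia1 and Pnn are smaller than the 0.53 that ribosomal centring adds and turn positive with it. The rises of Luc7l2, Xab2, Srpk2 and Upf2 are smaller than the shift of −0.41 under poly-A centring and turn negative. Differences between the lists were not tested.

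**Figure D5:**
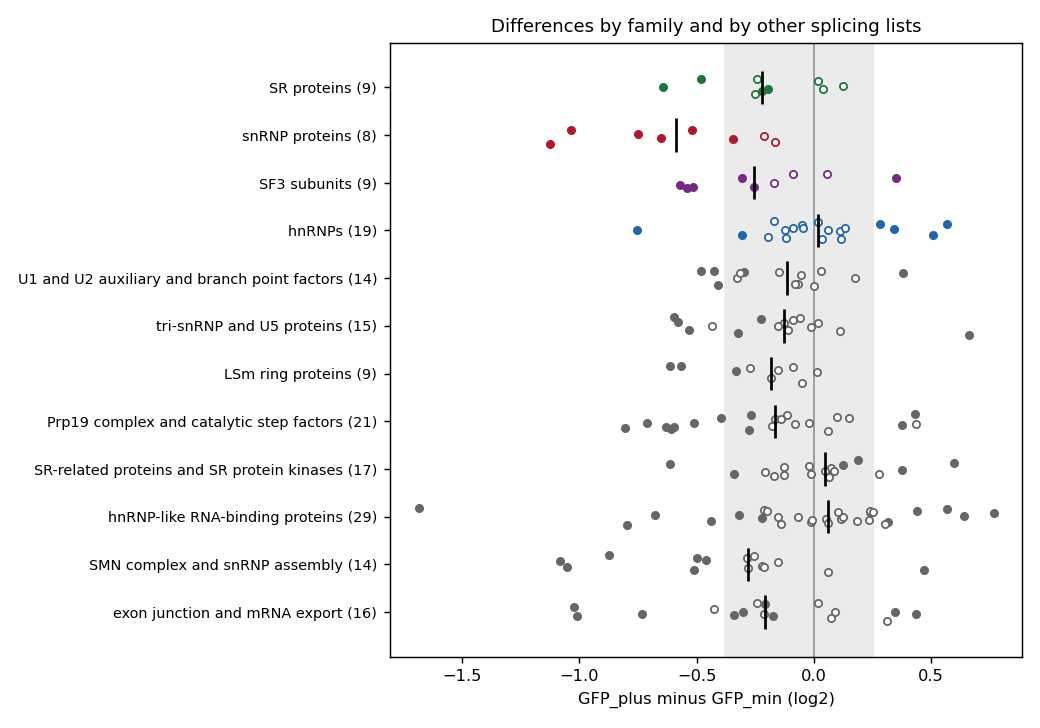
Difference between GFP_plus and GFP_min (log2) of each tested gene in the 4 families and in 8 lists of other splicing genes (number tested in brackets), filled where called by limma, with a black bar at each median. The grey band spans the middle quartiles of all genes tested (−0.38 to 0.25): the snRNP median of −0.59 is the 1 median below the band, on the deposited scale and equally after the 3 centrings, which shift band and points together.

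Markers of other cells differed between the same groups. Monocyte markers were lower in GFP_plus for 12 of 12, and the log2 of their summed signal was 15.88 to 15.93 in GFP_min and 12.41 to 12.44 in GFP_plus, with 0 of them below the array median on all arrays. Dendritic cell markers were lower for 7 of 8 (10.33 to 10.55 against 7.75 to 7.93) and basophil and mast cell markers higher for 5 of 5 (5.11 to 5.12 against 7.84 to 8.30). Neutrophil markers, which mark most Gr1-bearing marrow cells, were bright in both groups (17.40 to 17.44 and 17.47 to 17.55), with 5 of 11 higher. Proliferation markers were higher for 3 and lower for 1 of 14 (14.43 to 14.49 and 14.47 to 14.53). Of 5 tested B cell markers 1 was lower (6.63 to 6.71 and 6.27 to 6.51), and Pax5 was below the array median on all arrays. Of 3 tested T and NK cell markers 2 were lower (7.84 to 8.36 and 7.84 to 8.31), with Cd3e, Cd3g, Il2rb and Ncr1 below the median on all arrays. Of the erythroid markers 1 was tested, Car1, which was higher (list sums 4.82 to 4.94 and 4.99 to 5.09), and Alas2, Epor, Ermap, Hba-a1 and Klf1 lay below the median on all arrays. The gap between 3′ and 5′ probe sets, which grows as RNA degrades, was 0.26 to 0.37 in GFP_min and 0.59 to 0.66 in GFP_plus for Gapdh, and 0.79 to 0.83 and 0.82 to 0.90 for beta-actin. The part of these differences in the splicing factor results was not tested, and in bulk samples fewer cells of a type and less RNA per cell cannot be told apart. Hdc, on which the sort rests, was 11.19 in GFP_min and 12.01 in GFP_plus.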

How the data were processed

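Total RNA of sorted cells was labelled with biotin and hybridised to Affymetrix arrays. The deposited table holds log2 values of 45101 probe sets on 6 arrays. The submitters' processing notes name GCRMA. Its version and settings, and any filtering, were not given in the sources used here. Array medians were 2.82 to 2.88, and arrays correlated at 0.996 to 0.997 within groups and 0.978 to 0.982 between them. The number of arrays limits the precision.

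Gene symbols came from the platform annotation held by GEO (34945 with 1 symbol, 932 with several and 9160 with none given, besides 64 controls), and 34741 of the gene IDs were found in the RefSeq table, which updated symbols. Probe sets above their array's median on at least 3 of 6 arrays were tested (22956). GFP_plus minus GFP_min was fitted with limma 3.58.1 in R 4.3.3 (lmFit, eBayes with intensity trend, Benjamini-Hochberg over all tested probe sets, threshold 0.05). SE and 95% intervals come from this fit. On simulated data (22956 probe sets, 200 changed) it recovered 19% of changes of 0.5 log2 and 76% of 1 log2, with 5 false calls. In the real data 4971 probe sets were called higher and 5260 lower. The simulation changed far fewer, and the adjusted p depends on that share, so these recovery rates do not carry over to the real comparison.

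Members and lists were chosen with earlier results of these data known. Named in each family were the 4 largest rises and falls past the threshold and the gene with the highest mean, and in each list up to 2 rises and 2 falls. The other members are given more briefly. Alternatives are in the closing section. Figures used matplotlib 3.10.9.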

Additional observations from a re-analysis of the deposited data

How the results depend on the processing

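With centring on the tested probe sets 16 members were higher and 9 lower (median 0.034), and 4471 and 2089 of all genes. With ribosomal centring these were 34 and 4 (median 0.36), and 7379 and 1216 of all genes. With poly-A centring they were 0 and 39 (median −0.57), and 420 and 6026 of all genes (0 members were higher by limma at an unadjusted p under 0.05 too). Requiring 1 log2 left 0 higher and 2 lower members, Snrpf and Snrpb2, and 164 and 945 of all genes. Without the intensity trend 2 members were higher and 12 lower, and 2065 and 2878 of all genes. Leaving out 1 sample gave 2 to 6 higher members, beside 1746 to 2083 of all genes, and the lower count of members stayed within 1.5 times of 17. Of all genes, 2674 to 2770 were then lower.

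Among the 23 named members and the medians of families and of all genes, differences turned positive with ribosomal centring for the SR and SF3 medians (0.31 and 0.28), Srsf6 (0.049), Srsf3 (0.29), Srsf2 (0.31), Srsf11 (0.34), Snrpe (0.19), Sf3a3 (0.016), Sf3b5 (0.22), Hnrnpa0 (0.23) and Hnrnpdl (0.41). They turned negative with poly-A centring for the hnRNP and all-gene medians (−0.39 and −0.40), Sf3b1 (−0.35), Sf3b2 (−0.054), Hnrnpl (−0.12) and Hnrnpk (−0.061). Other members turned too, such as Snrpd3 and Hnrnpu with ribosomal centring and Srsf1 and Hnrnpf with poly-A centring. Srsf11 turned to 0.0073 with centring on tested probe sets and to 0.073 with the mean of probe sets, and Srsf2 to 0.14 without _x_at and _s_at probe sets, which leaves Srsf2 another probe set. Snrpe had no value there. The cause of the other changes was not tested. Of 390 values of the 23 named members under the alternatives, 316 kept their direction or lack of a call, 48 lost their call, 10 gained one and 16 turned.

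Same-lettered samples of the groups did not deviate together, with r of −0.18, −0.30 and −0.22, against −0.015 to 0.24 between different letters. Whether the letters mark pairs in the design cannot be read from these values. With the replicate block 3 members were higher and 12 lower, beside 1736 and 2601 of all 10807 genes. Among SF3 and among SR genes 2 were then lower and 0 higher.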
